A study of Mus musculus with 4 samples.

Results

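The 7 mRNAs described here, Alb, Afp, Apoa1, Apoa2, Apob, Ttr and Trf, encode plasma proteins that hepatocytes secrete, and short pieces of them were found in small RNA libraries of mouse fetal liver. A fragment was any read of at least 20 nt that matched no miRNA hairpin and matched, without mismatch and on the sense strand, a GENCODE transcript of a member. By this rule 19587 reads were found, of which wildtype replicates 1 and 2 gave 1527 and 2662, and Ago2 CD replicates 1 and 2 gave 10054 and 5344. The members are 7 of 13048 protein-coding genes that had reads of their own in these libraries. Fetal liver of 2 genotypes was sequenced. The wildtype and the catalytic dead Ago2 genotype (Ago2 CD) have 2 libraries each, which the study calls biological replicates. Frozen livers were the source, and small RNA was cloned from total RNA. The age of the fetuses, the allele and whether livers were pooled are not given in the sources used here.

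Hepatocytes of the fetal liver take up the secretion of plasma proteins while the same organ is the main site of red cell formation. Their mRNAs for carriers and apolipoproteins are among the most abundant in the tissue, and are translated at the endoplasmic reticulum. Among the Argonaute proteins of the mouse, Ago2 cuts an RNA that is paired to its small RNA guide. The catalytic dead form binds guides but cannot cut, and miR-451a, whose hairpin is matured by that cut, is known to depend on it in blood-forming cells. A small RNA library also catches pieces of longer RNAs that carry the end groups its adapters need.

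The libraries held 13138065 to 21875540 reads, of which 9265455 to 21828040 lay outside the Mir451a hairpin. All levels are reads per 1000000 reads outside that hairpin (RPM), because it held 5465175 and 3872610 reads in wildtype but only 47500 and 31010 in Ago2 CD. Reads ran to 50 nt in a pair of libraries, the first wildtype and the second Ago2 CD replicate, and to 46 nt in the other pair, so each read length held both genotypes. These are the longest reads deposited, and below, read length names only this split of the libraries. What else differed between the pairs is not given in the sources used here. Fragments of all protein-coding genes came to 5004 and 6355 RPM in wildtype against 8297 and 9402 in Ago2 CD, 1.56 times as much on average in Ago2 CD.

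The fragments are shown first as sequences, for 4 positions in coding sequence at which 5' ends piled up. Each line gives 10 bases of the mRNA in lower case, then the most frequent read starting at that position in capitals, so that the change of case marks the 5' end of the fragments. The Alb position was abundant in 1 library of each genotype, the Afp position was the most used in that mRNA, the first Trf position was higher in wildtype, and the second Trf position was the next most used in Trf.
Alb, position 1689: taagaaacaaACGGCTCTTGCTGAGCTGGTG
Afp, position 239: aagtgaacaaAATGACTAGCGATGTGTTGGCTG
Trf, position 1821: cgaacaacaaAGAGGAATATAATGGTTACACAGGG
Trf, position 2192: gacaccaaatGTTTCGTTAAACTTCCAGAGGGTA
Positions count from the first base of the reference transcript of each gene. In the GRCm38 genome the Alb position is chromosome 5, base 90472683 (plus strand, exon 12 of 15, codon 551), and the Afp position is chromosome 5, base 90492707 (plus strand, exon 3 of 15, codon 65). The Trf positions are chromosome 9, bases 103215846 (minus strand, exon 13 of 17, codon 531) and 103210590 (exon 16, codon 655). Of these, the first 3 follow an a in the mRNA.

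Reads were grouped at these positions by their 5' end and not by their 3' end. Which end varied more was thus not tested. Within such a group the 3' ends differed. The most frequent reads from Trf position 1821 are given to show this, with the bases after the 20th in capitals.
Trf, 21 nt, 18 reads in all: agaggaatataatggttacaC
Trf, 24 nt, 18 reads in all: agaggaatataatggttacaCAGG
Trf, 25 nt, 62 reads in all: agaggaatataatggttacaCAGGG
Trf, 26 nt, 53 reads in all: agaggaatataatggttacaCAGGGG
Trf, 27 nt, 21 reads in all: agaggaatataatggttacaCAGGGGC
Trf, 28 nt, 15 reads in all: agaggaatataatggttacaCAGGGGCT
Reads from this position ended at 11 different bases, and the most used of these held 30.7% of them. At Alb position 1689 there were 7 ends with 29.0% at the most used, at Afp position 239 there were 7 with 30.3%, and at Trf position 2192 there were 8 with 26.5%.

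Alb fragments were the most abundant of the members in each library, and those of Afp came next by reads of their own. With shared reads counted, Trf was above Afp in wildtype replicate 2 and Ago2 CD replicate 1. Alb encodes albumin, the main carrier protein of adult plasma (chromosome 5, 90460897 to 90476602, plus strand). Its fragments came to 65.0 and 127 RPM in wildtype against 226 and 164 in Ago2 CD, and Alb ranked 1st of 13048 genes by reads that match no other protein-coding gene (3rd when reads shared between genes count for each). Both Ago2 CD libraries were above both wildtype libraries, with means of 96.0 ± 43.9 and 195 ± 44.3 (SD, n = 2 each), a ratio of 2.03. Afp encodes alpha-fetoprotein, the albumin relative of fetal plasma, and lies next to Alb (chromosome 5, 90490737 to 90508907, plus strand). It ranked 5th by reads of its own and 10th with shared reads, at 32.5 and 52.9 RPM in wildtype against 84.0 and 84.6 in Ago2 CD. The Ago2 CD libraries lay close together and above both wildtype libraries, and the means of 42.7 ± 14.4 and 84.3 ± 0.386 (SD, n = 2 each) gave a ratio of 1.97.

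Among the apolipoprotein mRNAs only the fragments of Apob were abundant. Apob encodes the large structural protein of low-density lipoprotein and its precursors (chromosome 12, 7977648 to 8016835, plus strand). It had 19.9 and 29.6 RPM in wildtype against 48.5 and 43.2 in Ago2 CD, with no overlap between genotypes and 1.85 times as many on average in Ago2 CD. Apoa1, the main protein of high-density lipoprotein (chromosome 9, 46228580 to 46230466, plus strand), had 1.83 and 3.13 RPM in wildtype against 4.03 and 3.09 in Ago2 CD. Here the genotypes overlapped, since Ago2 CD replicate 2 was just below wildtype replicate 2. Apoa2, the second protein of that particle (chromosome 1, 171225054 to 171226379, plus strand), was the scarcest member, at 0.867 and 1.73 RPM in wildtype against 2.24 and 3.42 in Ago2 CD. These last values rest on 9, 16, 49 and 52 reads.

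Of the remaining members, Ttr encodes transthyretin, a carrier of thyroid hormone and of retinol-binding protein (chromosome 18, 20665280 to 20674321, plus strand). It had 2.02 and 5.18 RPM in wildtype against 9.03 and 6.25 in Ago2 CD, with both Ago2 CD libraries higher. Trf encodes transferrin, which carries iron to the red cell precursors (chromosome 9, 103204001 to 103230444, minus strand). Its fragments came to 25.2 and 67.8 RPM in wildtype against 86.4 and 47.1 in Ago2 CD, so the genotypes overlapped. Of the 3490 Trf reads, 2979 also matched Gm20425, an annotated gene whose transcripts hold exons of Trf, and the reads cannot tell them apart. The reads of Trf alone were 24 and 47 in wildtype against 242 and 99 in Ago2 CD.

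**Figure D1:**
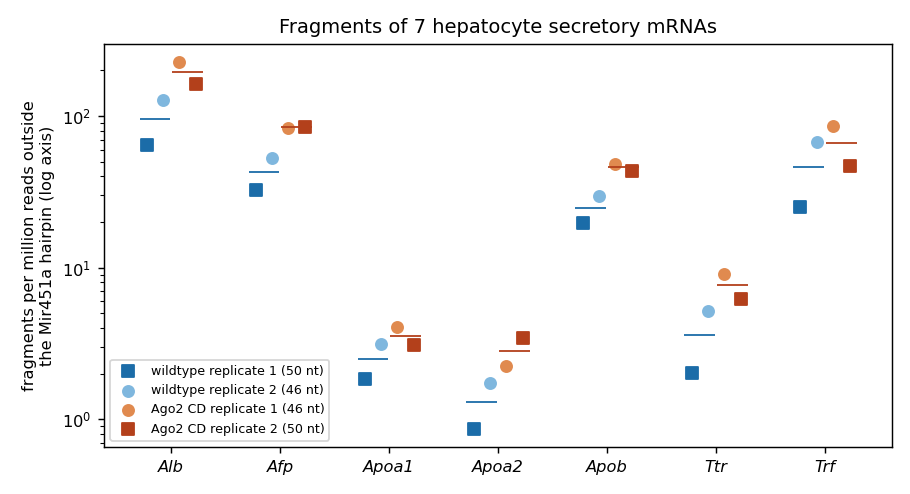
Fragments in RPM (log axis) for the 7 mRNAs, with 1 point per library (squares, 50 nt reads; circles, 46 nt reads) and a line at the mean of each genotype. Wildtype replicate 1 is the lowest library for each mRNA, and Ago2 CD lies above wildtype without overlap except for Apoa1 and Trf. Of the 2304 genes tested, 58.1% also lay above wildtype without overlap, by reads matching 1 protein-coding gene.

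Read per kilobase of the reference transcript, the order of the members was partly different. Alb had 31.9 and 62.5 RPM per kilobase in wildtype and 111 and 80.5 in Ago2 CD, Afp 15.7, 25.6, 40.7 and 41.0 in the same order of libraries, and Trf 9.78, 26.4, 33.6 and 18.3. The other members lay lower, with Apoa2 at 1.76 to 6.95, Ttr at 1.71 to 7.61, Apoa1 at 1.77 to 3.90 and Apob at 1.42 to 3.48 over the 4 libraries. Within this lower group neighbouring members did not differ beyond the spread of the libraries, and Apob, with more reads than Ttr, Apoa1 and Apoa2, was at its low end. Afp and Trf also overlapped in range, while Alb was above Afp in each library.

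All 7 members had estimates above 0 in the test between genotypes, as did 90.7% of the 2304 genes tested, and none passed. In edgeR's quasi-likelihood test over these genes, with reads that matched 1 protein-coding gene and with reads outside the Mir451a hairpin as library size, 0 genes passed in either direction (0%) at an adjusted p under 0.05. At an unadjusted p under 0.05 there were 520 genes, of which 4 were members. DESeq2 called 0 higher and 2 lower (0.0868%), and limma voom called 0. The log2 fold changes of Ago2 CD over wildtype (SE, Benjamini-Hochberg adjusted p) were 1.02 for Alb (0.49, 0.222), 0.98 for Afp (0.45, 0.207), 0.89 for Apob (0.42, 0.222) and 0.54 for Apoa1 (0.36, 0.337). They were 1.12 for Apoa2 (0.41), 1.10 for Ttr (0.40) and 1.27 for Trf (0.40), each with an adjusted p of 0.160. The median of the 7 was 1.02 beside a median of 0.59 over all 2304 genes. Without wildtype replicate 2, Ttr and Trf passed, at 1.92 (adjusted p 0.0199) and 1.93 (adjusted p 0.0159), among 35 genes that were then higher (0.939%) and 1 that was lower. With all reads as library size, which in wildtype holds the Mir451a reads, all 7 passed with 60.9% of genes. With read length as a term and TMM factors, added after seeing the data, Alb passed at 0.47 (adjusted p 0.0262) among 0.304% of genes called higher. With the reads of Gm20425 counted for Trf, its log2 fold change was 0.53 (SE 0.52, adjusted p 0.505).

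**Figure D2:**
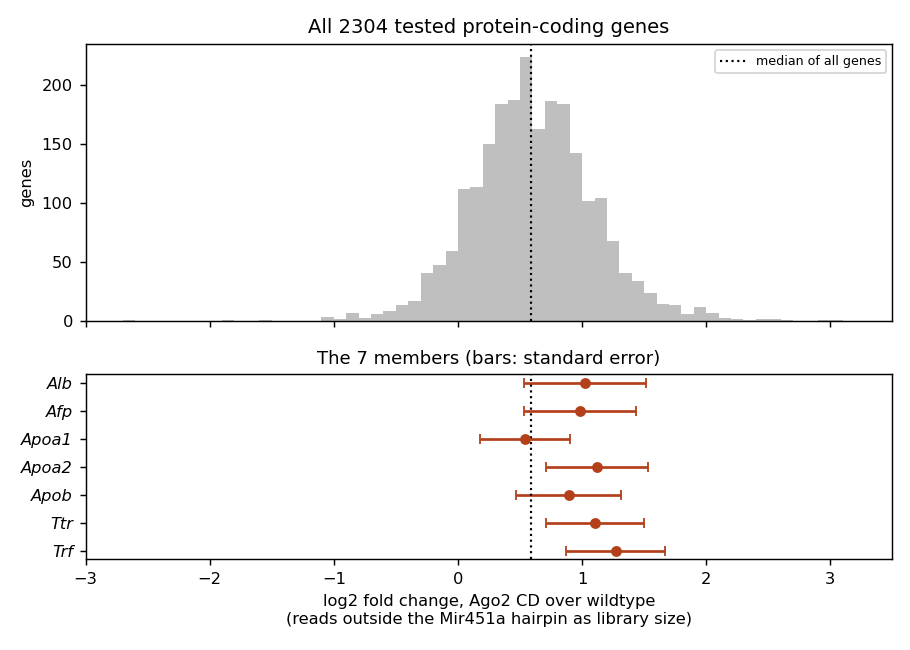
Log2 fold change of Ago2 CD over wildtype from edgeR, as a histogram of all 2304 tested genes (top) and for the 7 members with standard errors (bottom), with a dotted line at the median of all genes. The whole distribution is centred at 0.59, and 6 members lie above that line, from 0.89 to 1.27, with Apoa1 at 0.54 just below it.

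How far the members stood apart depended on the scale. In RPM, both Ago2 CD libraries were above both wildtype libraries for 6 of the 7 members (all but Apoa1, with Trf counted by its own reads), beside 58.1% of all tested genes. Within both read length pairs, the Ago2 CD library was above the wildtype library for 7 of 7, beside 68.4% of genes. As a share of the reads that match 1 protein-coding gene, the members held 2.48% and 3.53% in wildtype against 4.64% and 3.31% in Ago2 CD, which overlap (exact permutation test over libraries, two-sided p = 0.667, where 0.333 is the smallest p that 2 against 2 allows). On that scale Afp was the only member with both Ago2 CD libraries above both wildtype libraries, at 0.649% and 0.832% against 1.01% and 0.899%, beside 18.2% of genes. Within both read length pairs 5 members were higher by that share, all but Apoa1 and Apoa2, beside 26.3% of genes. Apoa1 changed sign with TMM factors, at a log2 fold change of -0.039, where the median of all genes was -0.019 and that of the members 0.47. In whole tissue, fewer cells of a type and less RNA per cell cannot be told apart.

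Other mRNAs of secreted hepatocyte proteins, a list of 50 genes, had fragments of 45, and 34 of these entered the test with 0 called. Their log2 fold changes were above 0 for 33 and below 0 for 1, near the 90.7% above 0 over all genes, with a median of 0.99 beside 0.59. Summed over the list by reads that match 1 protein-coding gene, they came to 61.7 and 106 RPM in wildtype against 164 and 137 in Ago2 CD. Those named next had the lowest unadjusted p among those above 0. Itih2, a heavy chain of the inter-alpha-trypsin inhibitor, had 2.51 and 2.59 RPM in wildtype against 5.04 and 8.55 in Ago2 CD. Gc, the vitamin D carrier, had 0.578 and 1.30 against 3.48 and 2.17, and Apoe, an apolipoprotein of several lipoprotein classes, 1.06 and 1.19 against 3.44 and 2.43. The log2 fold changes were 1.40, 1.63 and 1.40 with an adjusted p of 0.160 each. Serping1, the C1 inhibitor, was the gene below 0, at 1.06 and 2.27 RPM in wildtype against 0.458 and 0.723 in Ago2 CD (log2 fold change -1.50, adjusted p 0.160).

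Markers of several other cell types were also higher in RPM in Ago2 CD, as were fragments of all protein-coding genes, 1.56 times on average. Over all tested genes the median log2 fold change was 0.59, and 58.1% had both Ago2 CD libraries above both wildtype libraries. The sums below use reads that match 1 protein-coding gene. Reads shared by several genes, as near copies in a list would share them, are thus left out. The sums and the orders by reads hold only on this count. Erythroid mRNAs, 17 genes with reads, summed to 169 and 228 RPM in wildtype against 288 and 278 in Ago2 CD, and the 12 tested had a median log2 fold change of 0.51, led in reads by Hbb-bs at 0.48 and Slc4a1 at 0.54. Hepatocyte mRNAs of proteins that are not secreted, 12 of 13 with reads, summed to 5.88, 14.2, 18.2 and 16.05 in the same order of libraries, with Dlk1 (0.84) and Hnf4a (1.29) the largest in reads among the 6 tested (median 0.90). Mesenchymal markers were at 3.08 to 3.35 in wildtype and 4.90 to 6.44 in Ago2 CD, and endothelial ones at 0.964 to 1.62 and 2.63 to 2.75. Myeloid markers (2.02 and 4.86 against 4.54 and 6.71) and epithelial ones (0.482 and 1.19 against 1.01 and 1.12) overlapped. Muscle markers reached at most 0.578 RPM with 5 of 12 at 0, and neuronal markers at most 0.197 with 4 of 6 at 0. The markers of yolk sac and gut endoderm had 0 reads in wildtype, which allows up to 3 reads in each library, and 3 of 5 genes were at 0 in every library. The part of these cells in the members' values was not tested.

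Fragments of the members were short, and their length went with the split of the libraries by longest read rather than with the genotype. The median was 22 nt in both 50 nt libraries and 23 nt in both 46 nt libraries, and the mean was 22.7 and 23.2 nt in wildtype and 23.4 and 22.7 nt in Ago2 CD. The most frequent length was the shortest one counted, 20 nt, and the counts declined from there without a peak. Reads of 20 to 22 nt made up 55.1% and 46.7% in wildtype against 46.4% and 54.8% in Ago2 CD. Reads of 30 nt or more were 4 and 38 in wildtype against 353 and 18 in Ago2 CD, which is 0.262%, 1.43%, 3.51% and 0.337%. The longest member fragment had 34 nt, and 0 reached the full read length. Since the read filters are not given, whether read length limited the fragments was not tested. Fragments of all protein-coding genes had the same medians, with means of 22.7, 23.4, 23.6 and 22.6 nt.

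**Figure D3:**
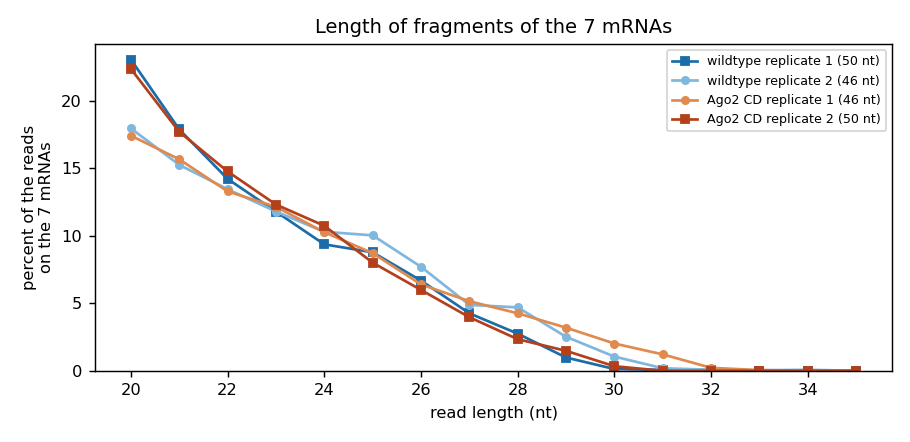
Share of the reads on the 7 mRNAs by read length in nt, with 1 line per library (squares, 50 nt reads; circles, 46 nt reads). The lines pair by read length and not by genotype, and each declines from 20 nt without a second peak.

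The fragments covered most of each abundant mRNA. Over the 4 libraries, 99.8% of the bases of the Alb transcript and 99.7% of those of Afp lay in a fragment, beside 90.9% for Trf, 85.1% for Apob, 95.7% for Apoa2, 78.6% for Apoa1 and 70.3% for Ttr. Antisense fragments were rare, 25 reads in all for the 7 members, of which 22 were of Trf. The share of the 3' UTR differed between members. In Alb the 3' UTR is 8.31% of the transcript and held 28.7% and 21.9% of the fragments in wildtype against 25.7% and 27.2% in Ago2 CD. Afp, its close relative, was the opposite, with 5.15%, 3.17%, 4.76% and 3.31% of its fragments in a 3' UTR that is 9.74% of the transcript.

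Of the other members, Ttr had 47.6% and 56.2% of its fragments in wildtype, and 70.1% and 53.7% in Ago2 CD, in a 3' UTR that makes up 49.2% of its length. Apoa2, with few reads, ranged from 18.8% in wildtype replicate 2 to 71.4% in wildtype replicate 1, where the 3' UTR is 22.8%. Apob fragments were 98.1% coding, where the coding sequence is 97.01% of the transcript, and Trf fragments 94.1% coding, where it is 81.4%. Taking the members together, 16.2% and 12.4% of fragments lay in 3' UTRs in wildtype and 16.6% and 15.8% in Ago2 CD, which overlap (exact permutation test, two-sided p = 0.667). The plot of 5' ends along the transcripts shows the profile of each library for Alb, Afp and Trf. In Alb, windows near position 1689 differed between the read lengths.

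**Figure D4:**
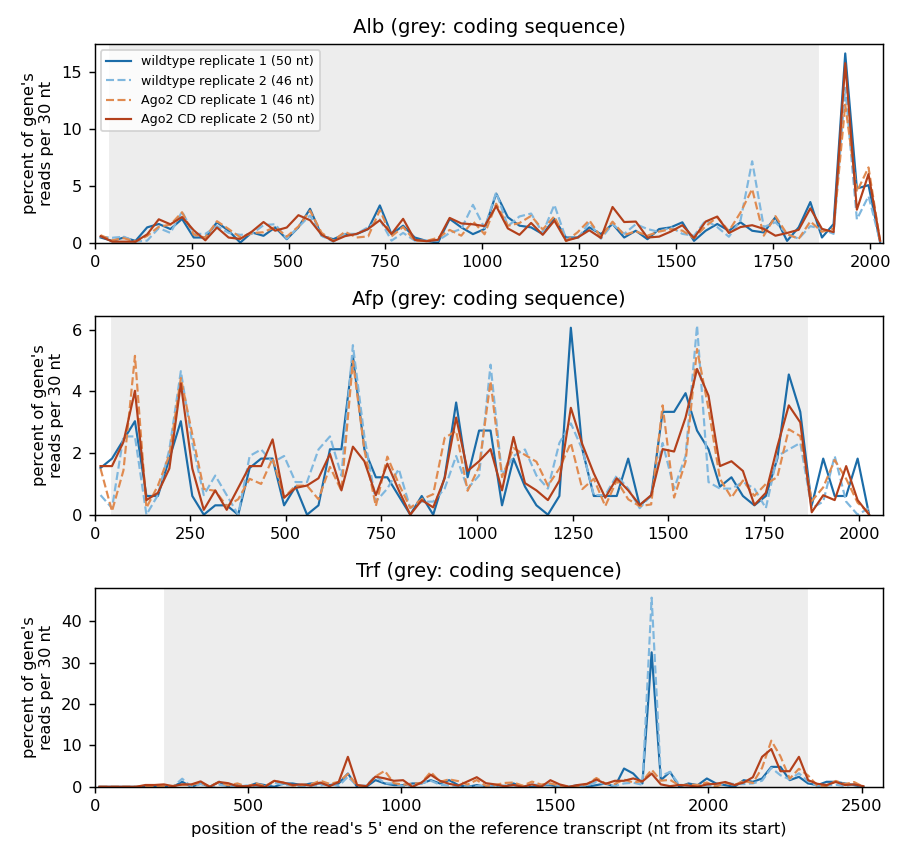
Share of each gene's fragments whose 5' end fell in successive 30 nt windows of the Alb, Afp and Trf reference transcripts, with 1 line per library (dashed, 46 nt reads) and the coding sequence in grey. Alb has its highest peak in the 3' UTR in each library, Afp has many peaks of similar height, and Trf has a peak near position 1821 that stands out only in wildtype.

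The strongest Alb site lay in its 3' UTR. Starts at position 1934, 69 nt after the stop codon (chromosome 5, base 90476502, exon 15), gave 31 and 66 reads in wildtype against 263 and 96 in Ago2 CD, which is 4.61%, 5.63%, 5.33% and 3.86% of Alb fragments. Starts 1 base upstream, at position 1933, gave 50, 28, 116 and 195 reads. The upstream base was used more in the 50 nt libraries (7.44% and 7.84% of Alb fragments) than in the 46 nt libraries (2.39% and 2.35%). In edgeR's fit over 188 start positions, 0 passed in either direction (0%), with 27 at an unadjusted p under 0.05, and these positions had log2 fold changes of 0.86 (SE 1.17, adjusted p 0.756) and 1.21 (SE 1.16, adjusted p 0.755). DESeq2 called 0 higher and 2 lower (1.06%), neither in a member. Both fits used reads matching 1 protein-coding gene, so only 1 Trf position entered. Position 1934 had a log2 fold change of -0.063 in DESeq2.

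Alb position 1689, in coding sequence, followed the read length. The 50 nt libraries had 3 reads (wildtype) and 4 reads (Ago2 CD) there, and the 46 nt libraries had 64 reads (wildtype) and 170 reads (Ago2 CD). In RPM that is 0.289 and 0.263 in the first pair and 6.91 and 7.79 in the second. The genotypes thus overlapped fully (log2 fold change 0.17, SE 1.84, adjusted p 0.968), and the 2 libraries of each pair were close. Its most frequent read, shown above, spans the junction of exons 12 and 13. The part of read length in this was not tested, since the labels do not say how the libraries of each length were made.

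In Afp no position held a large share. Starts at position 239 gave 2 and 10 reads in wildtype against 42 and 22 in Ago2 CD, and starts at the next base 8, 7, 27 and 17. Position 1571 (chromosome 5, base 90506631, exon 12, codon 509) gave 3, 9, 18 and 18. In RPM the genotypes overlapped at position 1571 (0.289 and 0.971 in wildtype against 0.825 and 1.18 in Ago2 CD), but not at positions 239 and 240. Together the 3 positions held 4.72% of Afp fragments, beside 11.7% for the 3 leading positions of Alb and 11.5% for those of Trf. The log2 fold changes were 1.41 (SE 0.94), 0.62 (SE 0.66) and 0.67 (SE 0.75), none past the threshold (adjusted p 0.650, 0.755 and 0.755).

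The remaining members had few repeated starts. Apob, with 2195 reads, used 1563 start positions, and its leading positions, 5218 and 5060 (both exon 26), had 10 reads each. In Ttr the leading position was 598, at codon 147, just before the stop codon, with 1, 4, 11 and 4 reads, followed by positions 654 and 669 in the 3' UTR with 13 and 11 reads in all. Apoa1 and Apoa2 had no position with 10 reads.

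**Figure D5:**
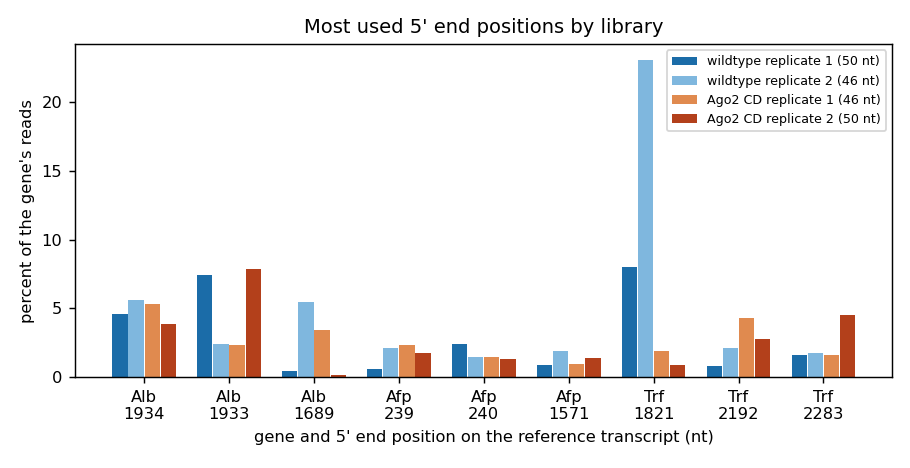
Share of a gene's fragments at the 3 most used 5' end positions of Alb, Afp and Trf, with 1 bar per library. Alb 1933 is high in both 50 nt libraries, Alb 1689 in both 46 nt libraries, and Trf 1821 in both wildtype libraries, at 8.03% and 23.0% against 1.91% and 0.870%.

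One stretch of Trf was lower in both Ago2 CD libraries than in both wildtype libraries. At position 1821 there were 20 and 141 reads in wildtype against 35 and 6 in Ago2 CD, which is 1.93 and 15.2 RPM against 1.60 and 0.395. In edgeR's fit of start positions with Gm20425 counted for Trf, it had a log2 fold change of -3.08 (SE 1.52, adjusted p 0.366). The position was not alone. Windows of 60 nt were laid along the transcripts, and the one that holds it, positions 1801 to 1860, had 85 and 296 reads in wildtype against 103 and 26 in Ago2 CD. In RPM this is 8.19 and 31.9 against 4.72 and 1.71, with both wildtype libraries higher, also within each read length. The window covers codons 525 to 544 and the junction of exons 13 and 14 (chromosome 9, minus strand, from base 103215866 down to 103215251). Within it, 90.6% of reads began in a run of 16 positions, 1816 to 1831, and reads began at 36 positions in all. They comprised 50 and 76 distinct sequences in wildtype and 60 and 19 in Ago2 CD.

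This window held 34.1% and 48.4% of all Trf fragments in wildtype, but 5.61% and 3.77% in Ago2 CD (exact permutation test, two-sided p = 0.333, the smallest possible). The test cannot decide here, since the window was placed at the Trf start with the highest mean level. That level came mostly from wildtype replicate 2. Trf fragments that began elsewhere came to 15.8 and 34.1 RPM in wildtype against 79.4 and 43.7 in Ago2 CD. These values are a description, since the window left out was picked for its high level in wildtype. The share of Trf fragments in the last 5 of 10 equal parts of the transcript was 77.5% and 81.0% in wildtype against 63.6% and 61.0% in Ago2 CD. Of fragments starting outside the window it was, again as a description, 65.9%, 63.3%, 61.4% and 59.5%.

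The window was chosen after its values were seen, and a fit over windows was added after seeing the data. In edgeR's test over 443 windows of all genes, with Gm20425 counted for Trf, it had a log2 fold change of -2.63 (SE 0.85, unadjusted p 0.0180, adjusted p 0.177), and 1 window of another gene was called lower (0.226%) and 0 higher. Its adjusted p was 0.000998 in DESeq2, 8.14e-09 with read length as a term and 0.00577 without wildtype replicate 1, where 1.35%, 1.81% and 0.444% of windows were called lower. It was 0.310 with TMM factors. The fit with read length as a term also called 109 windows higher (24.6%), among them 36 of the 81 member windows tested. In the test without such a term 2 member windows were below 0, this one and the next, positions 1861 to 1920 (9 and 25 reads in wildtype, 37 and 4 in Ago2 CD, log2 fold change -0.80, adjusted p 0.530), beside 9.48% of all windows. With TMM factors 19 of the 81 were below 0, and in DESeq2 21, where the median of all 443 windows was 0.031 and 0.010. Without wildtype replicate 2 the log2 fold change was -1.33 (adjusted p 0.358), and without Ago2 CD replicate 2 it was -2.09 (adjusted p 0.438). By log2 fold change it was the 7th lowest of the 443. Of 130 member windows with at least 20 reads, 75 had both Ago2 CD libraries above both wildtype libraries, beside 46.8% of such windows over all genes. It was the 1 window with both below, beside 3.13% over all genes.

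Other stretches of Trf were higher in Ago2 CD. Positions 2161 to 2220, near the end of the coding sequence, had 17 and 37 reads in wildtype against 289 and 113 in Ago2 CD (log2 fold change 1.88, SE 0.60, adjusted p 0.177). Within them, position 2192 had 2, 13, 79 and 19 reads in the same order. In RPM that position had 0.193 and 1.40 in wildtype against 3.62 and 1.25 in Ago2 CD, so the genotypes overlapped there. In edgeR's fit of start positions with Gm20425 counted for Trf, its log2 fold change was 1.61 (SE 1.19, adjusted p 0.713). Positions 1201 to 1260, also picked after their values were seen, had 1 and 1 read in wildtype and 40 and 25 in Ago2 CD, and gave the lowest p of the members' windows (log2 fold change 3.98, SE 0.65, adjusted p 0.0612). Position 2283 (base 103210499, exon 16, codon 685) had 4, 11, 30 and 31 reads.

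Counted read by read, the bases around the fragment ends were not those of the mRNAs at large. A much used start position thus weighs by its reads, and the part of single positions or members in these values was not tested. The second base upstream of the 5' end was A for 46.01% and 51.8% of fragments in wildtype against 44.5% and 44.8% in Ago2 CD, where A makes up 28.1% of the bases of the 7 transcripts. G was underused at that place, at 12.0% over the 4 libraries beside 23.6%. At the junction itself, the last base before and the first base of the fragment were both A in 14.99% and both T in 12.3%, beside 9.22% and 6.10% of the dinucleotides of the transcripts, and both G in 1.76% beside 4.96%. A at the second base upstream was more frequent in both wildtype libraries, with a difference (Ago2 CD minus wildtype) of -4.22 points beside an SD of 4.06 in wildtype. The difference was -1.17 points between the 50 nt libraries and -7.28 points between the 46 nt libraries. The last base of the fragment followed the read length, with C at 40.2% and 49.1% in the 50 nt libraries and 27.6% and 32.3% in the 46 nt libraries.

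Member reads with 1 base added at the 3' end that the mRNA does not hold were counted separately. An added C was found on 4.24% and 4.65% of member reads in the 50 nt libraries and on 0.0747% and 0.0197% in the 46 nt libraries. An added T was found on 0.374% and 0.224% in wildtype against 0.494% and 0.426% in Ago2 CD, and an added A on 0.0624%, 0.149%, 0.138% and 0.0710%. The added C thus separated the read lengths and not the genotypes.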

How the data were processed

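Per the labels' protocols, RNA of frozen livers was taken up in Trizol and cloned by a modified TruSeq small RNA procedure. The submitters' processing notes name cutadapt, without a version. Not given in the sources used here are the aligner, the read filters and the genome build. The deposited files list distinct read sequences of at least 16 nt with whole-number read counts, not normalized by the authors. Counts of repeated sequences (4152 and 5617 rows in the 50 nt libraries) were summed. Reads of at least 20 nt without undetermined bases were matched exactly to the GENCODE release M21 transcripts (GRCm38). Levels of the members and all lengths use every read of the rule, and positions those on the gene's reference transcript. Levels of other genes, of the gene lists and of all protein-coding genes together use only reads matching 1 protein-coding gene. Genes, start positions and windows were tested in R 4.3.3 with edgeR 4.0.16 (glmQLFit, glmQLFTest, filterByExpr), Ago2 CD against wildtype, with an adjusted p under 0.05 as threshold. Genes and start positions used reads matching 1 protein-coding gene. Other shares were compared by exact permutation over libraries in SciPy 1.17.1. Reads carry no molecular identifiers, so a fragment copied in PCR counts more than once. With 2 libraries per genotype only large differences pass.

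Alternatives were TMM factors, DESeq2 1.42.0 size factors, limma 3.58.1 voom, other library sizes, filters and read definitions, the replicate block, read length as a term and leaving out each library. Merging Gm20425 with Trf, read length with TMM factors and 60 nt windows were added after seeing the data. The text names all 7 members and, for each, up to 3 start positions with the highest mean level and at least 10 reads. From the list of secreted proteins it names up to 5 genes per direction past the threshold, filled to 3 by unadjusted p, and from each cell type list the 2 genes with most reads. The members and lists were chosen with earlier results of these data known. The functions were tested on simulated data.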

Additional observations from a re-analysis of the deposited data

How the results depend on the processing

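Counts of genes past the threshold, 0 in either direction, moved with the scaling. With all reads as library size, in which wildtype holds the Mir451a reads, 1531 genes were higher and 2 lower, and all 7 members were called higher. TMM factors, DESeq2 and a library size of mRNA reads each gave 0 higher and 2 lower. No filter gave 1 and 1, distinct sequences 1 and 1, the rule as written 1 and 6, and read length with TMM factors (added) 7 and 17, with Alb called at 0.47 (adjusted p 0.0262). Leaving out 1 library gave 4 to 35 higher and 0 to 2 lower. Of start positions, read length as a term called 2 higher and 1 lower, and DESeq2 2 lower. Of windows, 0 higher and 1 lower in the main analysis, read length as a term gave 109 and 8, TMM factors 5 lower, DESeq2 6 lower, and leaving out 1 library 1 to 14 higher and 3 to 5 lower. Of 271 values for single genes, positions and the window, 233 kept their direction and side, 24 newly passed and 14 reversed. Apoa1 was -0.039 with TMM factors, -0.042 with read length added, -0.060 in DESeq2 and -0.071 on mRNA reads. Alb position 1934 was -0.063 in DESeq2. Alb position 1689 was -0.49 with TMM factors, -0.66 in DESeq2, and with 1 library left out from -3.72 to 3.77. Afp positions 240 and 1571 were -0.25 and -0.14 with TMM factors and -0.36 and -0.25 in DESeq2. The difference in mean length, 0.0636 nt, ranged from -0.293 to 0.420 with 1 library left out, and that in reads of 30 nt or more, 1.08 points, from -0.508 to 2.67. The Alb share at position 1934 differed by -0.525 points, and by -1.26 to 0.208 with 1 library left out. The 3' UTR share differed by 1.90 points, -0.458 by distinct sequences and from -0.0164 to 3.83 with 1 library left out. The cause of these reversals was not tested.

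The replicate number as a block gave 60 genes higher and 2 lower of 2304 tested. In that fit the median log2 fold change of all genes was 0.60, and 90.6% were above 0. Among the 60 were 2 members, Ttr at 1.15 (adjusted p 0.0319) and Trf, by reads of its own, at 1.27 (adjusted p 0.0225). The block called no start position and 0 windows (adjusted p 0.446 for the Trf window), and gave -0.0094 for Alb position 1689. Deviations of same-numbered libraries correlated at -0.226 over 2304 genes, and the crossed pairing is that of read length, which called 0 genes. Reads of at least 25 nt left Apoa2 untested and gave 0 calls.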
